A study of Homo sapiens with 12 samples.

Results

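The 34 genes described here encode heterogeneous nuclear ribonucleoproteins (hnRNPs) and related RNA-binding proteins. They were chosen by name, with no measured value in the rule: each gene symbol in the list was looked up in the deposited count tables, and all 34 were found, on 1 row each, among 60106 genes. RNA had been sequenced from 12 libraries of 2 established human prostate cancer cell lines. PC3 was derived from a bone metastasis and lacks androgen receptor signalling. VCaP, also from a metastasis to bone, expresses the androgen receptor and carries the TMPRSS2-ERG fusion. In each line, 3 libraries came from cells given a non-targeting siRNA (NSI) and 3 from cells given an siRNA against FOXA1 (siFOXA1), a forkhead transcription factor that opens chromatin for steroid receptors. All cells were collected 72 hours after transfection, with 20 nM siRNA in PC3 and 40 nM in VCaP. PC3 grew in RPMI-1640 and was sequenced with a poly(A)-selecting kit, VCaP grew in DMEM and was sequenced with a total RNA kit, so the line cannot be told apart from the dose, the medium and the kit. By its title, the study asked how FOXA1 affects genes that act in splicing. No label says whether replicates were separate cultures, so p-values measure the spread between these libraries, which may be technical.

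hnRNPs coat newly made transcripts in the nucleus. Each recognises short sequence stretches through RNA recognition motifs, KH domains or RGG boxes, and where it binds it can hide or expose a splice site, change the choice of a polyadenylation site, or accompany the RNA to the cytoplasm. Many hnRNPs work against the SR proteins at the same exons, and several control the splicing of their own transcripts or of their paralogs. In prostate cancer, hnRNPs such as HNRNPA1, HNRNPL and PTBP1 are known for their part in the splicing of androgen receptor and pyruvate kinase transcripts.

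Levels are given as CPM, counts scaled to a common library size by the TMM method within each line, and as RPKM, the same per kilobase of exon, where genes are compared with each other. The PC3 libraries held 123140099 to 188226483 counts, the VCaP libraries 48187047 to 59839211. FOXA1 itself (chr14:38059189-38064239, minus strand, GRCh37) was at 296, 247 and 261 CPM in the NSI libraries of PC3 and 165, 184 and 164 CPM with siFOXA1, so that 63.8% remained. In VCaP it was at 458, 468 and 544 CPM and 85.2, 73.6 and 83.1 CPM, with 16.5% remaining. An exact two-sided permutation test over the libraries gave p = 0.1 in each line, the smallest p that 3 against 3 allows. The marker genes fitted the labels: all 7 luminal androgen receptor-positive markers had a mean of at least 1 CPM in VCaP and 2 of 7 in PC3, where KLK3, KLK2 and ERG were under 0.1 CPM in every library. Summed leukocyte markers went from between 0.511 and 0.624 CPM with NSI to between 1.13 and 1.22 with siFOXA1 in PC3. All 3 tested of the 5 were called higher there (15% of all genes). In VCaP the sum went from between 0.921 and 1.29 CPM to between 2.43 and 3.20, and the 1 tested was called higher (22.5% of all genes). CD3E was under 0.1 CPM in every library. Summed fibroblast and endothelial markers went from between 22.7 and 27.5 CPM to between 40.4 and 45.2 in PC3 and from between 15.2 and 23.7 CPM to between 2.97 and 7.36 in VCaP.

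The 34 genes together took a smaller share of the RNA when FOXA1 was reduced. In PC3 they held 0.971%, 1.01% and 0.989% of all counts in the NSI libraries and 0.829%, 0.863% and 0.821% in the siFOXA1 libraries. In VCaP the shares were 0.695%, 0.756% and 0.709% with NSI and 0.600%, 0.578% and 0.560% with siFOXA1. In neither line did the groups overlap. The mitochondrial share of counts moved with the contrast in VCaP, where it was 3.28%, 3.29% and 3.02% with NSI and 4.04%, 4.16% and 4.69% with siFOXA1. In PC3 it was 15.7%, 13.1% and 13.1% with NSI and 14.2%, 13.4% and 14.9% with siFOXA1, with overlapping groups. Its part in the results was not tested. In bulk libraries, less RNA per cell and fewer cells that express a gene cannot be told apart.

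Gene by gene, a change was called at a Benjamini-Hochberg adjusted p under 0.05 over all genes tested in a line. The main fit used the quasi-likelihood test of edgeR and left the replicate number out. In PC3, 17 of the 34 genes fell and 0 rose, where 27% of 26435 tested genes were called, 12.1% lower and 15% higher. Among genes at least as abundant as the lowest of the 34, 19.7% were called lower. The log2 fold change, siFOXA1 against NSI, was below 0 in 33 of 34 genes (48.6% of all genes), and in 26 of 34 each siFOXA1 library was lower than each NSI library (20.5% of all genes). In 1 gene, TIA1, each siFOXA1 library was higher (23.9% of all genes). The median log2 fold change of the 34 was −0.27 in PC3, beside 0.02 over all genes. With the replicate number as a block, 25 of the 34 fell in PC3, where 21% of all genes were called lower. In VCaP, 21 fell and 2, TIA1 and PTBP3, rose, where 45.8% of 22925 tested genes were called, 23.3% lower and 22.5% higher. Among genes at least as abundant in VCaP as the lowest of the 34, 37.1% were called lower. In this line 29 of 34 had a log2 fold change below 0 (47.8% of all genes). Every siFOXA1 library was below NSI in 23 of 34 (28% of all genes), and every one was above in 2 (27.9%). The median in VCaP was −0.24, beside 0.02 over all genes.

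**Figure D1:**
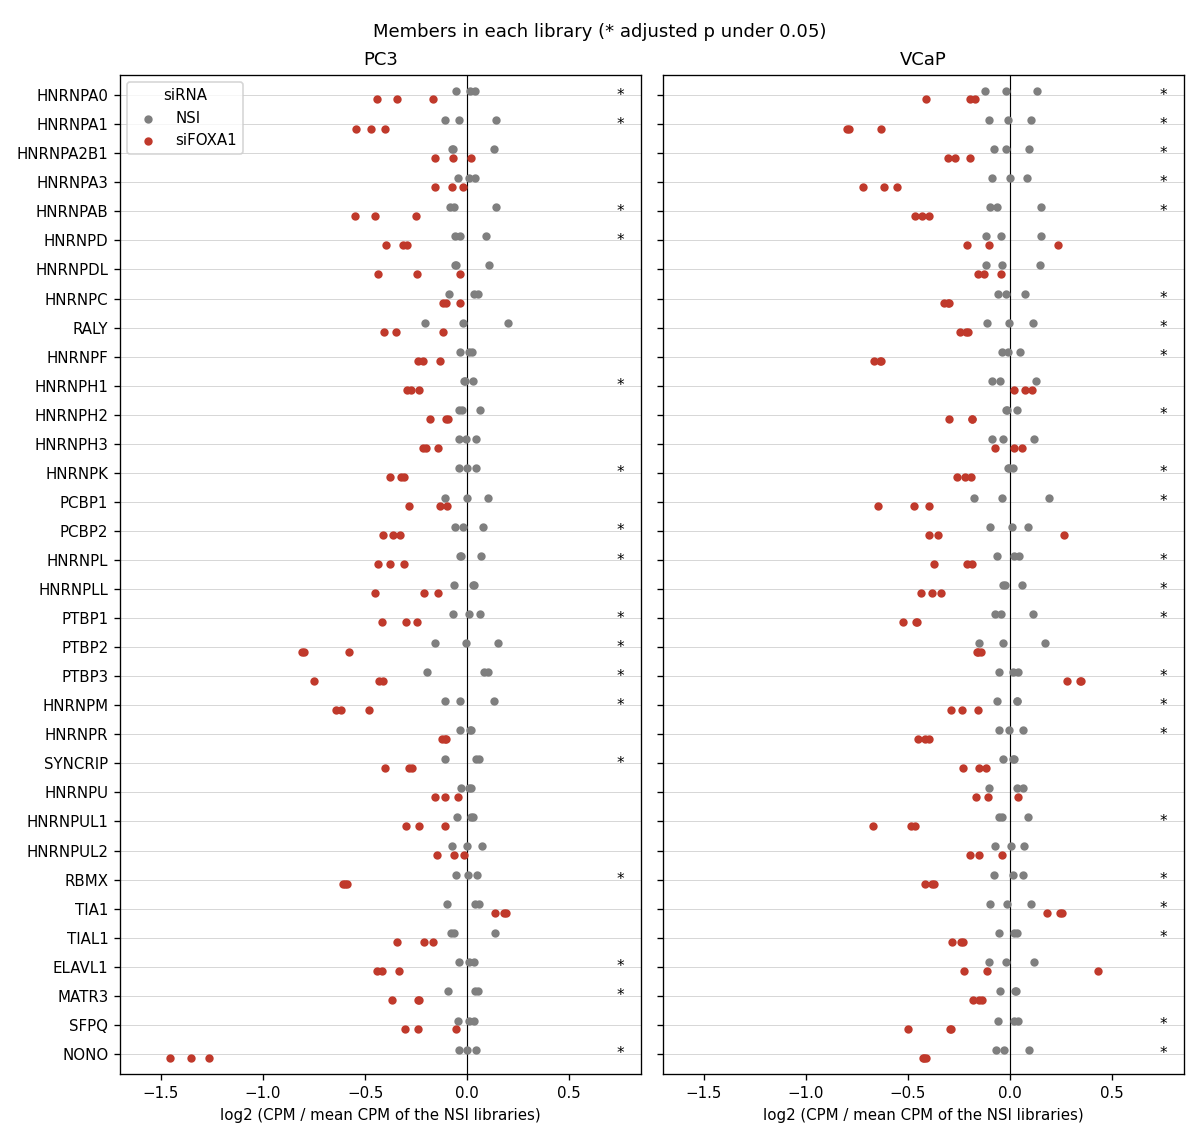
Each of the 34 genes in each library, as log2 of its CPM over the mean CPM of the 3 NSI libraries of the same line (grey, NSI; red, siFOXA1; asterisk, called in that line). In PC3 33 of 34 genes have a log2 fold change below 0, and NONO lies far to the left; in VCaP 29 of 34 do, and PTBP3 and TIA1 lie to the right.

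Several calls were lost when a single library was left out, for many genes any of several libraries, with log2 fold changes of the same sign. The share of all genes called lower moved as well. In PC3 this share was 12.1% with all 6 libraries and 7.03% without NSI replicate 3. It was 5.63% without siFOXA1 replicate 1 and 8.95% without siFOXA1 replicate 3. In VCaP it was 23.3% and, without siFOXA1 replicate 2, 18.7%. In PC3, leaving out NSI replicate 3 ended the calls of HNRNPA0, HNRNPAB, HNRNPD, HNRNPH1, HNRNPK, PCBP2, HNRNPL, PTBP1, PTBP3, SYNCRIP and MATR3, with log2 fold changes still between −0.48 and −0.26 and adjusted p between 0.0545 and 0.138. The remaining 6, HNRNPA1, PTBP2, HNRNPM, RBMX, ELAVL1 and NONO, were called in all 16 alternatives. Without siFOXA1 replicate 1, 9 of those 11 calls were lost, all but PCBP2 and PTBP3 (log2 fold changes −0.39 to −0.28). Without siFOXA1 replicate 3, 7 were lost: HNRNPA0, HNRNPAB, HNRNPD, HNRNPH1, PTBP1, SYNCRIP and MATR3 (−0.38 to −0.28). HNRNPH1, SYNCRIP and MATR3 were also lost without siFOXA1 replicate 2 or NSI replicate 1, HNRNPA0 without NSI replicate 1 or 2, and PTBP1 without NSI replicate 1. In VCaP, leaving out siFOXA1 replicate 2 ended the calls of HNRNPA0, HNRNPA2B1, RALY, HNRNPK and HNRNPM (log2 fold changes −0.29 to −0.21, adjusted p 0.0647 to 0.0908). HNRNPA0 was also lost without NSI replicate 2 or 3 or siFOXA1 replicate 3, RALY without NSI replicate 3 or siFOXA1 replicate 1, and TIA1 without replicate 1 of either group. In VCaP 14 of the 21 genes that fell, and PTBP3 among those that rose, were called in all 16 alternatives.

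Other gene groups moved with the same contrast. Of 18 cell cycle genes, 10 fell in PC3 (12.1% of all genes) and 18 in VCaP (23.3% of all genes). Their summed level went from between 748 and 822 CPM to between 506 and 516 in PC3. In VCaP it went from between 2733 and 2810 CPM to between 1457 and 1801. Of 20 interferon response genes, 20 rose in PC3 (15% of all genes), with a summed level of 675 to 970 CPM with NSI and 7373 to 7694 with siFOXA1. In VCaP 9 of 17 tested interferon response genes rose (22.5% of all genes) and 4 fell (23.3%). The sums there were 215 to 225 CPM and 195 to 213. Their part in the results on the 34 genes was not tested.

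The A/B and D proteins, which carry paired RNA recognition motifs, include the most abundant nuclear hnRNPs. Of these 7 genes, 4 fell in PC3 (12.1% of all genes) and 5 in VCaP (23.3% of all genes). All 7 had a log2 fold change below 0 in each line, as had 48.6% of all genes in PC3 and 47.8% in VCaP. HNRNPA1, a splicing repressor that shuttles to the cytoplasm, was at 826, 936 and 787 CPM with NSI and 583, 642 and 612 with siFOXA1 in PC3. In VCaP it was at 592, 632 and 683 CPM and 365, 368 and 409.8. The groups stood clear of each other in both lines, with log2 fold changes of −0.47 in PC3 (SE 0.09 with adjusted p = 0.00759) and −0.74 in VCaP (SE 0.08 with adjusted p = 7.99e-05), and it was called in all 16 alternative analyses of each line. HNRNPA1 has 5 named pseudogenes in the tables, and reads that fit several places were divided among them: they held 1.49% of the summed counts in PC3 and 5.73% in VCaP with NSI, and 1.42% and 5.58% with siFOXA1.

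HNRNPA2B1, which also reads N6-methyladenosine marks and sorts microRNAs into exosomes, and HNRNPA3, a close paralog, fell in VCaP and did not pass the test in PC3. HNRNPA3 was at 147, 166 and 156 CPM with NSI and 102, 95.02 and 107 with siFOXA1 in VCaP. In PC3 it was at 321, 327 and 309 and 286, 314 and 303 CPM. The VCaP groups were clear of each other and the PC3 groups overlapped. Its log2 fold change was −0.63 (SE 0.07 with adjusted p = 8.92e-05) in VCaP and −0.08 (SE 0.08 with adjusted p = 0.47) in PC3. HNRNPA2B1 kept 83.7% of its NSI level in VCaP (adjusted p = 0.0167) and 95.3% in PC3 (adjusted p = 0.617). Within the trio, the share of HNRNPA1 by RPKM went from 41.8% ± 0.590 (SD, n = 3) to 35.3% ± 0.217 in PC3, and the VCaP share from 51.3% ± 1.93 to 44.1% ± 1.84, while that of HNRNPA2B1 went from 47.1% to 52.5% and from 39.7% to 47.6%.

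HNRNPA0, a single-exon family member that binds AU-rich elements of cytokine and stress transcripts, was at 98.4, 105 and 103 CPM with NSI and 80.5, 90.8 and 75.1 with siFOXA1 in PC3. The VCaP values were 265, 284 and 315 CPM with NSI and 256, 251 and 216 with siFOXA1. The groups did not overlap, but the margins were small: the log2 fold changes of −0.31 and −0.26 had adjusted p of 0.0381 and 0.0431, and the calls held in 10 and 7 of 16 alternatives. HNRNPAB, which binds both RNA and CArG-box DNA, was at 240.2, 281 and 243 CPM with NSI and 186, 214 and 174 with siFOXA1 in PC3. VCaP libraries held 78.5, 76.7 and 91.0 CPM with NSI and 60.9, 59.5 and 62.3 with siFOXA1. It fell in each line, with log2 fold changes of −0.41 in PC3 (SE 0.11) and −0.43 in VCaP (SE 0.07) and an interval for the difference, VCaP minus PC3, of −0.29 to 0.29. HNRNPD (AUF1), which promotes decay of AU-rich transcripts, fell in PC3 (log2 fold change −0.33, adjusted p = 0.0189). In VCaP its 3 siFOXA1 libraries spread from 57.4 to 78.2 CPM, around the NSI range of 61.2 to 73.8. HNRNPDL, its paralog, did not pass the test in either line (log2 fold changes −0.23 and −0.11); in PC3 it was called with the replicate number as a block (adjusted p = 0.0161).

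HNRNPC forms the tetramer that measures the length of bound RNA and shields cryptic exons, and RALY is its close relative. Neither passed the test in PC3 and both fell in VCaP. HNRNPC kept 80.7% of its NSI level in VCaP (log2 fold change −0.31, SE 0.07 with adjusted p = 0.00434) and 94.2% in PC3 (adjusted p = 0.47). RALY kept 85.8% in VCaP (adjusted p = 0.023) and 82.1% in PC3 (adjusted p = 0.124), where its NSI libraries alone spread from 198 to 263 CPM. With the replicate number as a block, RALY was called lower in PC3 as well (adjusted p = 0.00735). The difference between the lines did not pass the test for either gene.

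The F/H proteins bind runs of guanine near splice sites and polyadenylation signals. In PC3 HNRNPH1 fell and the other 3 did not pass the test. Each siFOXA1 library was below each NSI library in all 4, as in 20.5% of all genes in PC3. In VCaP HNRNPF and HNRNPH2 fell. HNRNPF was at 301, 294 and 313 CPM with NSI and 195, 195 and 190.4 with siFOXA1 in VCaP, against 305, 314 and 317 and 264, 284 and 268 in PC3. The siFOXA1 libraries lay below NSI in both lines, with a wide gap in VCaP and a narrower one in PC3. The log2 fold change was −0.65 (SE 0.06 with adjusted p = 3.01e-05) in VCaP and −0.20 (SE 0.08 with adjusted p = 0.0956) in PC3, where the fit with the replicate block called it (adjusted p = 0.0229). HNRNPH1 was at 411, 399.6 and 400.2 CPM with NSI and 342, 333 and 329.6 with siFOXA1 in PC3. In VCaP it was at 339, 393 and 349 and 388, 379 and 365, with overlapping groups. Its PC3 log2 fold change of −0.27 (adjusted p = 0.0302) held in 9 of 16 alternatives.

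Within the F/H group the balance shifted in VCaP. The share of HNRNPF by RPKM was 42.2% ± 2.23 (SD, n = 3) with NSI and 31.4% ± 0.359 with siFOXA1 there, against 23.6% ± 0.644 and 23.7% ± 0.670 in PC3. HNRNPH2 kept 85.7% of its NSI level in VCaP (adjusted p = 0.0128) and 91.5% in PC3 (adjusted p = 0.266). A readthrough gene with RPL36A shares 16.3% of its exon bases on the same strand, so its reads were divided. HNRNPH3 was at 87.9% of NSI in PC3 (adjusted p = 0.107; 0.0332 with the replicate block) and at 100.2% in VCaP, where its log2 fold change lay between −0.05 and 0.06 over the 16 alternatives.

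The KH-domain members bind cytosine-rich stretches. HNRNPK, which acts in transcription as well as in splicing and translation, was at 580.0, 565 and 598 CPM with NSI and 469, 463 and 448 with siFOXA1 in PC3. The VCaP libraries were at 493, 491 and 499 and 433, 414 and 424. It fell in both lines, with little spread within groups: the log2 fold change was −0.34 (SE 0.08 with adjusted p = 0.0133) in PC3 and −0.22 (SE 0.06 with adjusted p = 0.0162) in VCaP. PCBP1 and PCBP2 are poly(C)-binding proteins that stabilise transcripts and load iron onto ferritin. PCBP2 fell in PC3 (log2 fold change −0.37, adjusted p = 0.0113) and PCBP1 fell in VCaP (log2 fold change −0.50, adjusted p = 0.00306).

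PCBP2 in VCaP turned on 1 library. With siFOXA1 it was at 69.0, 66.9 and 106 CPM, beside 88.6, 93.5 and 82.3 with NSI, so replicate 3 lay above every NSI library and the other 2 below. The log2 fold change was −0.13 (adjusted p = 0.529) with that library and −0.37 (adjusted p = 0.00252) without it. The same library was the highest of its group for ELAVL1 and HNRNPD. Exons of PCBP2 overlap other genes over 27.2% of their bases on the same strand and 47.1% on the opposite strand (MAP3K12), and PC3 reads were counted without regard to strand. Of the PCBP1 exon bases, 45.4% lie opposite a gene on the other strand.

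The PTB and L proteins bind pyrimidine- or CA-rich stretches and mostly repress exons. PTBP1 is the widespread form, PTBP2 the neural paralog whose transcript PTBP1 directs to decay, and PTBP3 another paralog known from blood cells. PTBP1 fell in both lines, PTBP2 in PC3, and PTBP3 was called in opposite directions, and the sequence upstream of a start site of each is shown to let the reader compare what lies there. The stretches come from the RefSeq promoter table (GRCh38.p14), end at or 3 bases before the start site, and leave out bases that lie in an annotated exon. The first PTBP1 start site lies upstream of the PTBP1 stretch shown. The 250 bases before that first site (chr19:797202-797451) are not printed and held 3 GC boxes and 2 CCAAT motifs. Capitals mark a GC box (GGGCGG or its reverse complement CCGCCC) and, in PTBP3, the forkhead motif TGTTTAC.
PTBP1, second start site, chr19:797734-797983, plus strand: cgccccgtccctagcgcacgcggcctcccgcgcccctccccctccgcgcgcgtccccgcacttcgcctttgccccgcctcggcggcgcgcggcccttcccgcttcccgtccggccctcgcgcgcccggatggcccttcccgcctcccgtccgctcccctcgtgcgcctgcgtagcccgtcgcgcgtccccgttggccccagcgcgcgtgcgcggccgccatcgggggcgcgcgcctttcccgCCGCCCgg
PTBP2, chr1:96722388-96722634, plus strand: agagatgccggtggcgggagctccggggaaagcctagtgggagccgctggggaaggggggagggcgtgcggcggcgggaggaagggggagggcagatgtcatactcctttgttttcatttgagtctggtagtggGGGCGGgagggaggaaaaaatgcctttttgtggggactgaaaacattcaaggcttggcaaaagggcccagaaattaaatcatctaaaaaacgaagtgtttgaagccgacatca
PTBP3, chr9:112333030-112333276, minus strand: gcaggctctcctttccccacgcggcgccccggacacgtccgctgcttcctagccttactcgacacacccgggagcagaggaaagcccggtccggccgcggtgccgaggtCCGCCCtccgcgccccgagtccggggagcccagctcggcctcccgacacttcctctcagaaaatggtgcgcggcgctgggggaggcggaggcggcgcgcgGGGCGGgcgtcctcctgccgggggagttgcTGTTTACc

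PTBP3 (ENSG00000119314.15_4, chr9:114979996-115095947, minus strand, GRCh37) was the only one of the 34 genes called in opposite directions in the lines. In PC3 it was at 118, 96.0 and 116 CPM with NSI and 82.8, 65.4 and 81.8 with siFOXA1. In VCaP it was at 135, 144 and 141 and 178, 169 and 177. It fell in PC3 and rose in VCaP, with no overlap of the groups in either: the log2 fold change was −0.52 in PC3 (SE 0.12 with adjusted p = 0.0151) and 0.32 in VCaP (SE 0.06 with adjusted p = 0.002). Opposite calls were made for 5.04% of the 19261 genes tested in both lines. The PC3 call was lost without NSI replicate 3 (log2 fold change −0.48, adjusted p = 0.0614) and held in the other 15 alternatives, and the VCaP call held in all 16.

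PTBP2 was at 27.5, 30.7 and 24.8 CPM with NSI and 18.5, 15.9 and 15.8 with siFOXA1 in PC3. The VCaP libraries were at 34.0, 39.2 and 31.3 and 31.2, 31.2 and 31.5. It fell in PC3 (log2 fold change −0.72, SE 0.11 with adjusted p = 0.00232), where the groups did not overlap, and did not pass the test in VCaP (log2 fold change −0.15, adjusted p = 0.153), where they did. PTBP1 was at 285, 269.7 and 296 CPM and 230.0, 239 and 212 in PC3, and at 235, 231 and 262 and 177, 177 and 169 in VCaP. It fell in both lines, by −0.32 (SE 0.09 with adjusted p = 0.0253) and −0.48 (SE 0.07 with adjusted p = 0.000446) on the log2 scale, and its PC3 call held in 11 of 16 alternatives. In VCaP, PTBP3 thereby made up 19.9% ± 1.05 (SD, n = 3) of the summed PTB level by RPKM with NSI and 29.9% ± 0.959 with siFOXA1, while PTBP1 went from 76.7% to 66.4%. In PC3 the PTBP3 share was 15.3%, 13.4% and 14.7% with NSI and 13.6%, 10.8% and 14.5% with siFOXA1: the groups overlapped, and the share was lower with siFOXA1 within each of the 3 replicate numbers.

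HNRNPL, a CA-repeat binder, was at 202, 201 and 216 CPM with NSI and 159, 152 and 166 with siFOXA1 in PC3. VCaP had 177, 167 and 180.3 CPM and 151, 154 and 135. It fell in both lines, with log2 fold changes of −0.37 and −0.26 and adjusted p of 0.0108 and 0.0158, though 22.3% of its exon bases are shared with another gene on the same strand. HNRNPLL, its paralog known for CD45 splicing in lymphocytes, fell in VCaP to 76.6% of NSI (adjusted p = 0.00043). In PC3 it was at 83.3% (adjusted p = 0.086; 0.0231 with the replicate block).

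HNRNPM, which binds GU-rich stretches and is known for its part in splicing during epithelial-mesenchymal change, fell in both lines. It was at 243, 273 and 231 CPM with NSI and 162, 179 and 159 with siFOXA1 in PC3, and at 151, 161 and 161 and 141, 134 and 129 in VCaP. The groups did not overlap, and the log2 fold change was −0.58 in PC3 (SE 0.10 with adjusted p = 0.00318) and −0.23 in VCaP (SE 0.06 with adjusted p = 0.0168). HNRNPR and SYNCRIP (hnRNP Q) are paralogs that act in RNA transport and stability. HNRNPR fell in VCaP to 74.6% of NSI (adjusted p = 0.000469) and was at 92.6% in PC3 (adjusted p = 0.304). SYNCRIP fell in PC3 to 80.3% (adjusted p = 0.0276, held in 9 of 16 alternatives) and was at 89.1% in VCaP (adjusted p = 0.0549).

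HNRNPU, a scaffold protein that binds chromatin-associated RNA, was at 93.1% of NSI in PC3 and 94.9% in VCaP and did not pass the test in either. Of its paralogs, HNRNPUL1 fell in VCaP to 68.8% (log2 fold change −0.54, adjusted p = 0.000457) and was at 86.4% in PC3 (adjusted p = 0.0982; 0.0289 with the replicate block). HNRNPUL2 was at 94.9% and 91.4%, with 46.1% of its exon bases shared with a readthrough gene. RBMX (hnRNP G), an X-linked protein that acts in splicing and in sister chromatid cohesion, was at 281, 289 and 269 CPM with NSI and 184, 186 and 185 with siFOXA1 in PC3. VCaP had 266, 284 and 295 CPM and 216, 211 and 217. Its siFOXA1 libraries lay within a few CPM of each other, clear of NSI, and it fell in both lines, with log2 fold changes of −0.60 in PC3 (SE 0.08 with adjusted p = 0.000924) and −0.39 in VCaP (SE 0.06 with adjusted p = 0.000961) that were called in every alternative run.

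TIA1 and TIAL1 bind uridine-rich stretches, help U1 snRNP find weak splice sites and build stress granules. TIA1 was at 45.7, 49.6 and 43.2 CPM with NSI and 55.1, 52.3 and 54.8 with siFOXA1 in VCaP, and at 68.8, 61.6 and 67.8 and 74.8, 75.4 and 72.7 in PC3. In both lines each siFOXA1 library was higher than each NSI library. It passed the test in VCaP (log2 fold change 0.23, SE 0.06 with adjusted p = 0.0164) and not in PC3 (log2 fold change 0.17, adjusted p = 0.156), and the VCaP call was lost without NSI replicate 1 (log2 fold change 0.20, adjusted p = 0.0725) or siFOXA1 replicate 1 (0.21, adjusted p = 0.0715). TIAL1 went the other way: it fell in VCaP to 83.9% of NSI (adjusted p = 0.00377) and was at 84.7% in PC3 (adjusted p = 0.0954; 0.0117 with the replicate block). ELAVL1 (HuR), which stabilises AU-rich transcripts, fell in PC3 to 75.9% of NSI (log2 fold change −0.40, adjusted p = 0.00698) in all 16 alternatives. In VCaP ELAVL1 was at 19.3, 22.5 and 20.4 CPM with NSI and 19.2, 17.7 and 27.95 with siFOXA1, and without siFOXA1 replicate 3 its log2 fold change went from 0.06 to −0.17 (adjusted p = 0.152).

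NONO, SFPQ and the nuclear matrix protein MATR3 belong to the nuclear matrix and paraspeckle group. NONO and SFPQ pair with each other or with PSPC1 in DBHS dimers that build paraspeckles and act in transcription, splicing and DNA repair. NONO (ENSG00000147140.15_3, chrX:70503042-70521018, plus strand, GRCh37) changed more than any other of the 34 genes in PC3. It was at 648, 685 and 664 CPM with NSI and 243, 277 and 261 with siFOXA1, so 39.1% remained, and the lowest NSI library was far above the highest siFOXA1 library. The log2 fold change in PC3 was −1.35 (SE 0.09 with adjusted p = 1.94e-05). In VCaP NONO was at 381, 369.9 and 414 CPM with NSI and 288, 290.1 and 292 with siFOXA1, with 74.7% remaining (log2 fold change −0.42, SE 0.07 with adjusted p = 0.000831). NONO was called lower in all 16 alternatives of each line.

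The partners of NONO did not pass the test in PC3, and with the replicate block each was called, in opposite directions. SFPQ was at 87.4% of NSI there (adjusted p = 0.148; 0.0290 with the replicate block), and PSPC1, not one of the 34, was at 49.6, 50.8 and 47.5 CPM with NSI and 56.4, 63.0 and 56.2 with siFOXA1. PSPC1 had each siFOXA1 library above each NSI library, with a log2 fold change of 0.25 (adjusted p = 0.0610; 0.00865 with the replicate block), and was called higher in 7 of 16 alternatives. By RPKM, NONO made up 65.3% ± 0.710 (SD, n = 3) of the 3 partners with NSI and 44.2% ± 1.45 with siFOXA1 in PC3. In VCaP all 3 were lower and the share was 47.5% ± 1.59 and 46.9% ± 1.74: SFPQ fell to 78.0% of NSI (adjusted p = 0.00454) and PSPC1 to 72.5% (adjusted p = 6.93e-05). MATR3 fell in PC3 to 82.4% (adjusted p = 0.041, held in 8 of 16 alternatives) and was at 89.7% in VCaP (adjusted p = 0.0569). A second gene model on the same strand covers 93.0% of MATR3 exon bases, so each holds a part of the reads of that locus.

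Between the lines, 9 genes fell in both: HNRNPA0, HNRNPA1, HNRNPAB, HNRNPK, HNRNPL, HNRNPM, PTBP1, RBMX and NONO, where 5.72% of the 19261 genes tested in both lines did so, and 0 rose in both, where 4.97% of genes did. Calls in the same direction came to 10.7% of all genes. With the replicate number as a block the count was 15, where 10.2% of all genes fell in both. In the main fits another 7 were called in PC3 and not in VCaP, and 13 in VCaP and not in PC3. That by itself does not show a difference between the lines. Over all tested genes, calls in either direction were also more frequent in VCaP (45.8%) than in PC3 (27%) in the main fits. Calls lower came to 12.1% in PC3 and 23.3% in VCaP there, and to 21% and 24.8% with the replicate block. HNRNPDL, HNRNPH3, HNRNPU and HNRNPUL2 were called in neither line in the main fits. The sign of the log2 fold change was the same in both lines in 30 of 34 genes (58.2% of all genes), yet the size of the change in one line did not go with that in the other. Across the 34 genes, as a description, Pearson's r was 0.10 and Spearman's rho −0.0047, and without NONO 0.01 and −0.05. The genes share the libraries of a line, so they are not independent points.

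**Figure D2:**
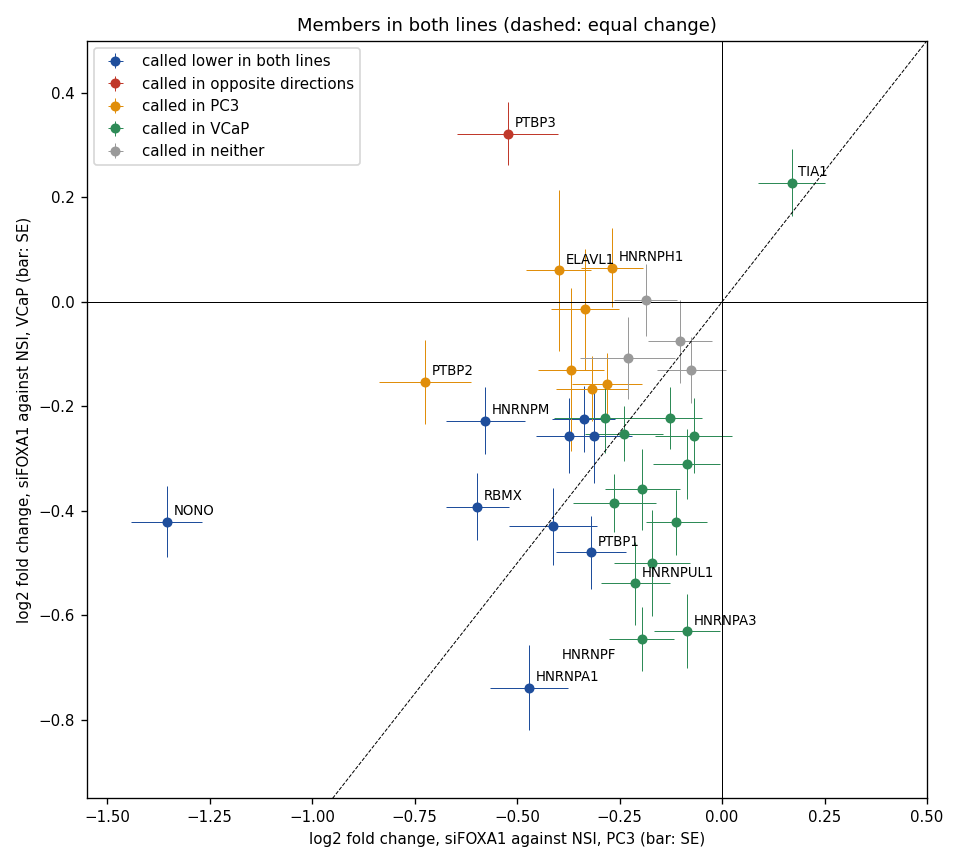
Log2 fold change of each of the 34 genes, siFOXA1 against NSI, in PC3 (x axis) and VCaP (y axis), with standard errors as bars and colours for the line or lines in which the gene was called. Most points lie to the lower left of 0 without following the dashed line of equal change; NONO lies far left, HNRNPA1 lowest, and PTBP3 alone is called in opposite directions.

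The difference itself, VCaP minus PC3, was tested as an interaction with all 12 libraries in one model. It was called for 7 of 34 genes, where 22.2% of 30425 genes were called, 11% more negative and 11.3% more positive in VCaP, so the number was close to the background. The change was more positive in VCaP for NONO (0.95, SE 0.12 with adjusted p = 2.59e-05), PTBP3 (0.87, SE 0.16 with adjusted p = 0.000832) and PTBP2 (0.59, SE 0.14 with adjusted p = 0.0071). It was more negative in VCaP for HNRNPA3 (−0.53, SE 0.11 with adjusted p = 0.00366) and HNRNPF (−0.43, SE 0.10 with adjusted p = 0.00761). These 5 were called in all 22 alternatives. HNRNPM (0.37) and HNRNPH1 (0.36) were called too, with adjusted p of 0.0336 and 0.0406, but in 8 and 5 of 22 alternatives, and both were lost when any 1 of the PC3 libraries, or replicate 1 of either VCaP group or VCaP siFOXA1 replicate 2, was left out, HNRNPM also without VCaP NSI replicate 2 and HNRNPH1 without replicate 3 of either VCaP group (adjusted p up to 0.146 and 0.184 over the alternatives). Over all genes 3427 differences were more positive and 3333 more negative in VCaP, against 2643 and 3880 when libraries were scaled by size alone.

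**Figure D3:**
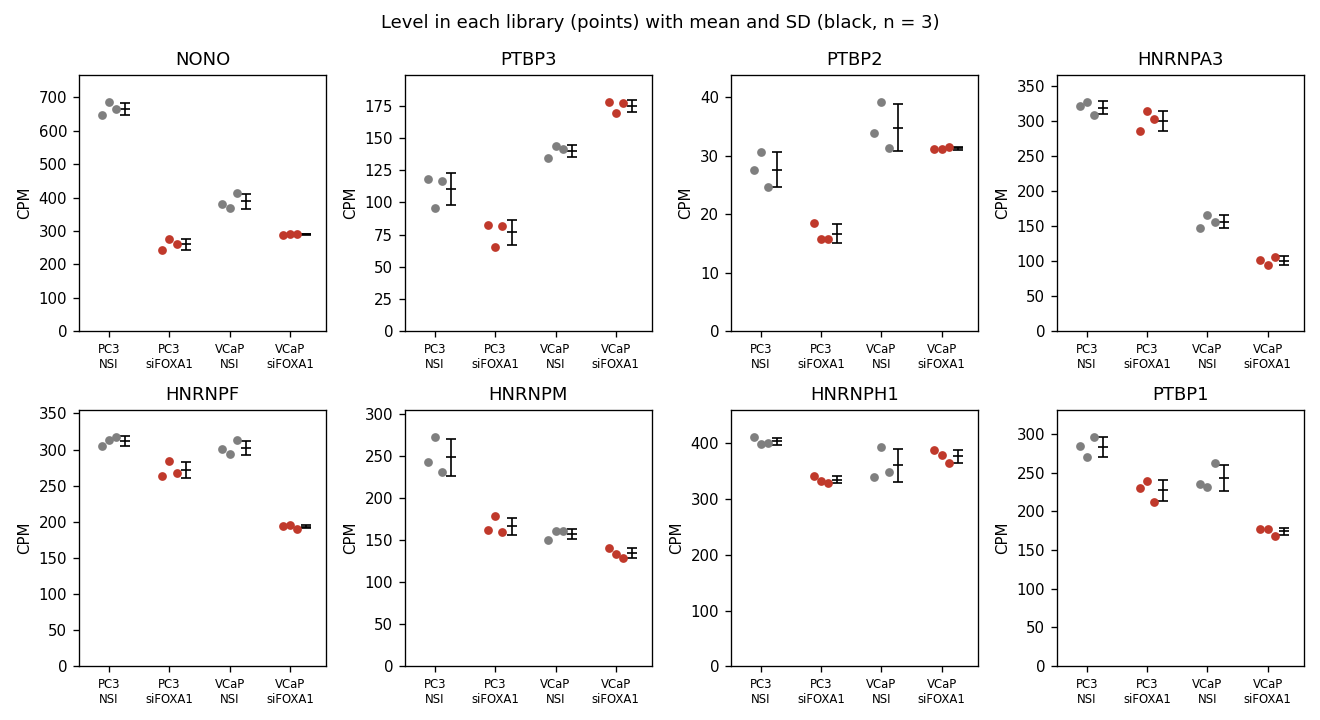
CPM of the 7 genes whose change differed between the lines, and of PTBP1 for comparison, in each of the 12 libraries (points; grey, NSI; red, siFOXA1), with the mean and SD of 3 libraries in black and each axis starting at 0. NONO in PC3 lies at 648 to 685 CPM with NSI and 243 to 277 with siFOXA1, and PTBP3 is lower with siFOXA1 in PC3 and higher in VCaP.

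The 34 genes spanned a wide range of levels. With NSI in PC3, HNRNPA2B1 (224 ± 18.7 RPKM, SD, n = 3), NONO (207 ± 5.70), HNRNPA1 (198 ± 18.1) and HNRNPK (191 ± 5.53) stood highest, and their ranges met or nearly met. PTBP2 was lowest at 2.3 RPKM, and the median over the 34 was 66.3. In VCaP the order began with HNRNPK (162 RPKM), HNRNPA1 (148), NONO (121) and HNRNPA2B1 (115), and ended with ELAVL1 (3.3) and PTBP2 (2.89), with a median of 31.8. The lines were scaled separately and sequenced with different kits, so levels are compared within a line and no test was made across them. After knockdown the medians were 54.8 RPKM in PC3 and 27.2 in VCaP. In PC3 NONO moved from the second place to 80.9 RPKM, below HNRNPM's NSI level.

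**Figure D4:**
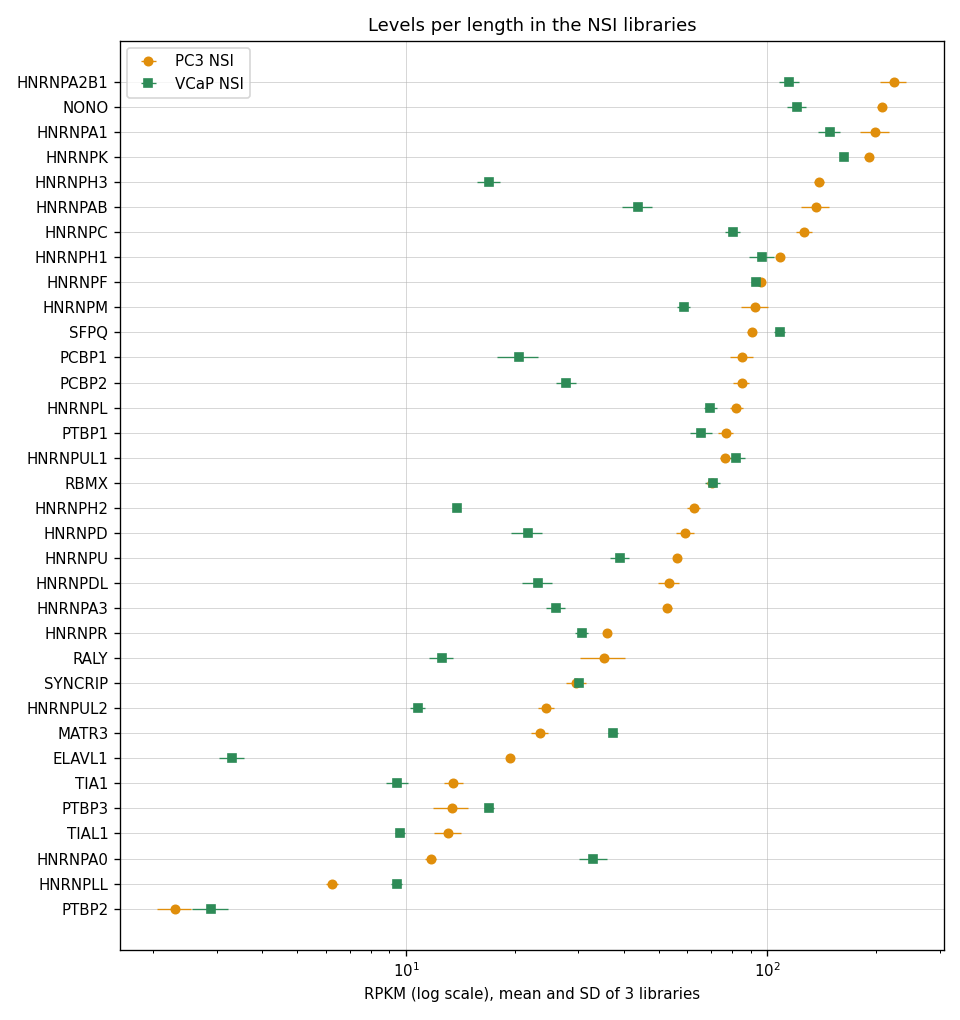
RPKM of the 34 genes with NSI (log axis; points, mean of 3 libraries; bars, SD), ordered by the PC3 level. HNRNPA2B1, NONO, HNRNPA1 and HNRNPK lie at the top in both lines and PTBP2 at the bottom, while HNRNPH3, PCBP1 and ELAVL1 lie far lower in VCaP than in PC3 in libraries made with different kits.

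Other RNA-binding proteins give a comparison outside the family. Of a list of 40 such genes, 38 were tested in each line. In PC3 10 fell (12.1% of all genes) and 4 rose (15% of all genes), with a median log2 fold change of −0.16. In VCaP 14 fell (23.3% of all genes) and 4 rose (22.5% of all genes), with a median of −0.07. YBX1, a cold-shock protein that packages mRNA, was at 1084, 1216 and 1171 CPM with NSI and 812, 849 and 787 with siFOXA1 in PC3, and fell in VCaP too (log2 fold changes −0.50 and −0.42). KHSRP, a decay factor, fell in both lines, with log2 fold changes of −0.41 in PC3 and −0.99 in VCaP. MSI2, an RNA-binding protein of stem cells, was called in opposite directions like PTBP3: it was at 149, 134 and 149 CPM and 92.7, 96.3 and 101 in PC3 and at 95.1, 109 and 106 and 172, 175 and 191 in VCaP. RBMXL1, a retrogene of RBMX, rose in PC3 (0.39) and fell in VCaP (−0.26). In PC3 DAZAP1 fell (−0.56) and FMR1 (0.50) and ELAVL2 (0.39) rose. These PC3 rises were lost without single libraries: FMR1 without siFOXA1 replicate 1 or 3 (adjusted p up to 0.0721), ELAVL2 without these or NSI replicate 3 (up to 0.0705), and RBMXL1 without these or NSI replicate 1 or 3 (up to 0.103). In VCaP MSI1 fell (−1.51) and MBNL2, a splicing factor of muscle and brain, rose (1.31).

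Promoter windows of 300 bases, from 250 before to 50 after a RefSeq start site, were found for 31 of the 34 genes, 45 windows in all. Both strands were searched for short motifs. The forkhead motif TGTTTAC stood in 2.22% of these windows, that of PTBP3 alone, against 3.42% of all 35116 windows, and TGTTTGC in that of HNRNPH3 alone, against 3.89%. The GC box GGGCGG stood in 71.1% of the windows against 45.0% of all, CCAAT in 51.1% against 34.6%, the E-box CACGTG in 20.0% against 7.26%, and TATAAA in 11.1% against 11.5%. A match describes the letters in the window and says nothing of what binds there.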

How the data were processed

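RNA was sequenced from 12 libraries, 3 per group, and the sample titles gave groups and replicate numbers. The deposited values are expected counts per gene, not normalized. Per the file headers, the authors counted with featureCounts v2.0.0 on the exons of GENCODE v28lift37 basic (GRCh37), kept fragments with both ends mapped, and divided a fragment that fitted several places or genes among them, so counts are fractional. Per the file headers, strand was ignored in PC3 and reverse-strand counting was used in VCaP, so in PC3 reads from overlapping genes on opposite strands cannot be told apart. STAR 2.7.3a and Subread 2.0.0 are named in the submitters' processing notes with no role given.

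The expected counts were rounded to whole numbers. Each line was fitted on its 6 libraries with edgeR 4.0.16 in R 4.3.3: filterByExpr at its defaults, TMM factors, and a quasi-likelihood test, two-sided, with Benjamini-Hochberg adjustment over all genes tested and a call at an adjusted p under 0.05. One model of all 12 libraries gave the interaction of line and siRNA. The standard error is the log2 fold change over the square root of F. Biological coefficients of variation were 15.0% (PC3) and 9.90% (VCaP). The script was tested on simulated data. Replicates of a group differed beyond counting noise, with a chi-square per degree of freedom of 6.88 to 101.0.

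The replicate numbers were taken as pairing the libraries in PC3, though no label says what a number shares. Deviations from the group means correlated there across genes at 0.41, 0.57 and 0.21 for the same numbers. NSI replicate 1 also correlated at 0.35 with siFOXA1 replicate 3. In VCaP the values for the same numbers were 0.09, 0.04 and 0.35, so the numbers were not taken as pairs. The main PC3 fit and the fits without single libraries left the pairing out. The replicate block was run as an alternative. Alternatives were other scalings, other filters, DESeq2 1.42.0, the replicate block, one fit over 12 libraries and leaving out each library. TMM factors computed before the filter, and leaving out replicate 2 of PC3 or replicate 3 of VCaP in both groups, were added after seeing the data.

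The 34 genes, the other lists and the rules were chosen with earlier results of these data known. Values in every library are given for genes called in both lines, in opposite directions or in the interaction, and for the 3 with the smallest adjusted p per direction and line. Of the other RNA-binding proteins, the 3 called genes with the largest change per direction and line and a mean of at least 5 CPM are named. Motifs were searched in RefSeq promoter windows (GRCh38.p14), and printed stretches leave out exons of GENCODE v44lift37, found by matching the sequence to GRCh37.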

Additional observations from a re-analysis of the deposited data

Results flagged for a closer look

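The change with siFOXA1 differed between the lines by the interaction test of edgeR for 7 of the 34 genes, and each is given as the log2 difference, VCaP minus PC3. For NONO it was 0.95, from −1.35 in PC3 and −0.42 in VCaP. PTBP3 had a difference of 0.87, from −0.52 and 0.32. The difference for PTBP2 was 0.59, from −0.72 and −0.15. HNRNPM and HNRNPH1 differed by 0.37 (from −0.58 and −0.23) and 0.36 (from −0.27 and 0.07), and both lost the call in most alternatives. HNRNPA3 differed by −0.53 (from −0.08 and −0.63) and HNRNPF by −0.43 (from −0.20 and −0.65), both with the larger fall in VCaP. FOXA1 was left at 63.8% of NSI in PC3 and 16.5% in VCaP, and the lines also differ in siRNA dose, medium and kit, so these cannot be told apart from the line.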

How the results depend on the processing

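In PC3, 33 of 34 genes had a log2 fold change below 0 in all 16 alternatives. The count of calls moved when single libraries were left out. In the main fit 17 genes were called lower. The count was 6 without NSI replicate 3, 8 without siFOXA1 replicate 1 and 10 without siFOXA1 replicate 3. It ranged from 6 to 18 without single libraries, and was 25 without replicate 2 in both groups. The 6 genes called in every alternative were HNRNPA1, PTBP2, HNRNPM, RBMX, ELAVL1 and NONO. With the replicate number as a block 25 were called lower in PC3, where the share of all genes called lower went from 12.1% to 21% (18.5% without replicate 2 in both groups), adding HNRNPDL, RALY, HNRNPF, HNRNPH3, HNRNPLL, HNRNPUL1, TIAL1 and SFPQ. In VCaP, where the numbers were not taken as pairs, the block left 21 lower and 2 higher. Without single VCaP libraries 16 to 21 were called lower and 1 to 2 higher, 22 were lower without replicate 3 in both groups, 1 fit over 12 libraries gave 14 lower (12.9% of all genes, against 23.3%), and scaling by library size alone gave 1 higher (TIA1 lost). The count called lower in both lines was 9, 15 with DESeq2, 15 with the replicate block, 4 to 12 without single libraries and 15 without replicate 2 in both PC3 groups. The interaction count of 7 was 5 to 6 without single libraries, 8 without replicate 2 in both PC3 groups, 10 with DESeq2, and 9 with the block, which added HNRNPR and ELAVL1. FOXA1 kept its call, at −0.76 to −0.57 in PC3 and −2.67 to −2.53 in VCaP.

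For single genes, 46 of the PC3 values lost a call and 27 gained one, against 26 and 12 in VCaP. Turned signs were seen in VCaP for 3 uncalled genes. HNRNPD (−0.01) went to 0.0332 with upper-quartile factors, 0.0254 with the CPM filter, 0.0176 in the fit over 12 libraries, and 0.0597, 0.0224 and 0.0767 without NSI 2, siFOXA1 1 or siFOXA1 2, in a range of −0.1569 to 0.0767 without single libraries. HNRNPH3 (0.0035) went to −0.0037 with DESeq2 or its size factors, −0.0133 with library size alone, −0.0072 with no filter or factors before the filter, −0.0548, −0.0172, −0.012 and −0.0251 without NSI 1, NSI 3, siFOXA1 1 or siFOXA1 3, in a range up to 0.0561, and −0.0414 without replicate 3 in both groups. ELAVL1 (0.06) went to −0.0061 without NSI 1, −0.1688 without siFOXA1 3, in a range up to 0.1863, and −0.1787 without replicate 3 in both groups. The cause was not tested. With 3 libraries per group, small changes can be missed. In the main fits this held more for PC3, where the spread was larger with the pairing left out. It was not seen for the hnRNP and related genes with the replicate block, where 25 were called lower in PC3 and 21 in VCaP. Of all genes, 21% and 24.8% were called lower with the block.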
